A study of Homo sapiens with 16 samples.

Results

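The olfactory receptor (OR) genes of human chromosome 11 were examined as a set of genes that is mostly silent outside the nose, in H3K27ac ChIP-seq peak lists of K562 cells. A protein-coding gene of chromosome 11 in RefSeq (GRCh38.p14) was a member if its symbol was OR followed by a number, 1 or 2 letters and a number. The rule found 171 genes, of which 168 could be placed on the chromosome with a strand, among 19665 protein-coding genes placed in the same way. The other 3, OR8U8, OR8U9 and OR9G9, lie on alternate scaffolds of the assembly and were not examined. A gene was counted as having a peak in a list when a peak with a -log10 q of at least 2, a q-value of at most 1%, lay within 5 kb of its transcription start site (TSS). In these lists 153 of the 168 genes (91.1%) had no peak in any of the 14 libraries, 12 had a peak in some of them and 3 had one in every library.

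K562 is a human erythroleukemia cell line derived from chronic myelogenous leukemia. ChIP reactions with an antibody against H3K27ac received either a fixed 0.25 µg of antibody or an amount normalized to titer 1, the antibody to chromatin ratio that the study had set as its optimum. The chromatin amount was expressed as DNAchrom, the DNA content measured directly in the chromatin. The fixed-antibody libraries, named by µg of DNAchrom and titer, were 0.31-T32, 0.62-T16, K562-H3K27ac-1.25-T8, 2.5-T4, 5-T2, 10-T1a and 20-T0.5, and the normalized libraries were 0.31-T1, 0.62-T1, K562-H3K27ac-1.25-T1, 2.5-T1, 5-T1, 10-T1b and 20-T1. Library names are those of the labels, mostly without the shared prefix K562-H3K27ac-. Each condition was 1 library, and the 2 libraries of 10 µg had the same titer. Their labels do not name an arm, and each was placed with the libraries whose peaks were called against the same input. Since the peaks of each arm were called against a separate input, the effects of the antibody amount, the input and the preparation cannot be told apart between arms. Within the fixed-antibody arm, titer and DNAchrom cannot be told apart. Since all libraries came from 1 cell line, the p-values below cover the spread between libraries only.

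OR genes encode the G protein-coupled receptors with which olfactory sensory neurons detect odorants. Each mature neuron expresses a single OR gene from a single allele, and the remaining genes, which stand in clusters on many chromosomes, are packed in heterochromatin. H3K27ac, acetylation of lysine 27 of histone H3, marks active promoters and enhancers. Chromosome 11 holds large OR clusters, and 1 of them surrounds the beta-globin genes, which are active in erythroid cells and are controlled by a locus control region on the HBE1 side.

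The 300 bases from 250 before to 50 after the annotated start are given for 6 genes whose peaks the results turn on, from the RefSeq promoter table (GRCh38.p14), 5′ to 3′ on the strand of the gene, with each CG dinucleotide in capitals. OR52N2 (chr11:5808674-5808973, plus strand) had peaks in all 14 lists and had the most CpG dinucleotides, 14, of the 135 members matched to the table, and a peak lay over these bases in 12 lists. OR2D3 (chr11:6920752-6921051, plus strand) also had peaks in all 14 lists but none over these bases. ZNF215 (chr11:6926176-6926475, plus strand), the neighbouring zinc finger gene, holds 15 CpG and had a peak over its bases in 13 lists. OR51T1 (chr11:4881650-4881949, plus strand) and OR51E1 (chr11:4643732-4644031, plus strand) each had a peak over these bases in 3 lists. OR51V1 (chr11:5200633-5200932, minus strand) is the member nearest to the beta-globin genes and had no peak in any list.
OR52N2: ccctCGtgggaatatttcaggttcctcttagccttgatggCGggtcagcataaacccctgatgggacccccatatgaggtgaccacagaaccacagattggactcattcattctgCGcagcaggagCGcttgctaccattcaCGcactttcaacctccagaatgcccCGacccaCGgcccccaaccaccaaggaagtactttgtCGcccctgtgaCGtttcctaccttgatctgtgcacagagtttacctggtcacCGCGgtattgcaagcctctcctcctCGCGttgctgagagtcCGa
OR2D3: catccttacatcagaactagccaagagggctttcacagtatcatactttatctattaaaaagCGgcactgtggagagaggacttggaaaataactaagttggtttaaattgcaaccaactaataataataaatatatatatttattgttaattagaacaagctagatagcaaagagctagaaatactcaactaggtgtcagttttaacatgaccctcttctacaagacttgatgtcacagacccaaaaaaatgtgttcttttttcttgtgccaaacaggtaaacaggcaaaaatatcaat
ZNF215: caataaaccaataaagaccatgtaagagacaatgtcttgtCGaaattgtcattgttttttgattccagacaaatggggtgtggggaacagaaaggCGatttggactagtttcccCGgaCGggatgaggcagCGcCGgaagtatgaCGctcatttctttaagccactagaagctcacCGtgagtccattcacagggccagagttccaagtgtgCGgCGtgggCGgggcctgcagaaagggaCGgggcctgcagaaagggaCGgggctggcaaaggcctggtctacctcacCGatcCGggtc
OR51T1: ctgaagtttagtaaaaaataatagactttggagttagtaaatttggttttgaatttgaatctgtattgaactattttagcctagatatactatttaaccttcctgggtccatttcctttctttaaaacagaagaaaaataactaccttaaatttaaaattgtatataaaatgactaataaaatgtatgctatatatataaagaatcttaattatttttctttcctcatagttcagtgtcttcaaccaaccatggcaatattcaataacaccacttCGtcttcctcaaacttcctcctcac
OR51E1: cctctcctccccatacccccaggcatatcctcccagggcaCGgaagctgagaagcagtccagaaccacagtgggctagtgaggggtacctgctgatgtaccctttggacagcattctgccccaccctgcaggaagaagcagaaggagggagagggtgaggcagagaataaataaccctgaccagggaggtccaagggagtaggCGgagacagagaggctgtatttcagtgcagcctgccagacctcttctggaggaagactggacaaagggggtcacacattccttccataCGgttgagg
OR51V1: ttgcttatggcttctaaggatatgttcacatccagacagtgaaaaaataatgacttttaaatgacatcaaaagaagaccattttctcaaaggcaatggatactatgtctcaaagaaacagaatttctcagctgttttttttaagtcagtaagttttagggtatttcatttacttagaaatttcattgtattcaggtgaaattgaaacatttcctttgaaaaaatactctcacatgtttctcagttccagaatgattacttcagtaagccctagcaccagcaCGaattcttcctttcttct

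Peaks near the members were few in every library. Of the 2352 combinations of 168 genes and 14 lists, 107 (4.55%) held a peak, 44 of them in fixed-antibody and 63 in normalized lists. The 15 members with a peak in at least 1 list were 8.93% of the set, whereas 65.2% of all protein-coding genes had one. The 3 members with a peak in all 14 lists were 1.79% of the set, against 51.8% of all protein-coding genes. Among the 1122 other protein-coding genes of chromosome 11, 777 (69.3%) had a peak in at least 1 list and 623 (55.5%) in all 14. The 61 other protein-coding genes that lie inside the OR clusters had peaks in at least 1 list for 37 genes (60.7%) and in all 14 for 26 (42.6%). The 219 OR genes of other chromosomes had a peak in at least 1 list for 11 genes (5.02%) and in all 14 for 4 (1.83%).

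**Figure D1:**
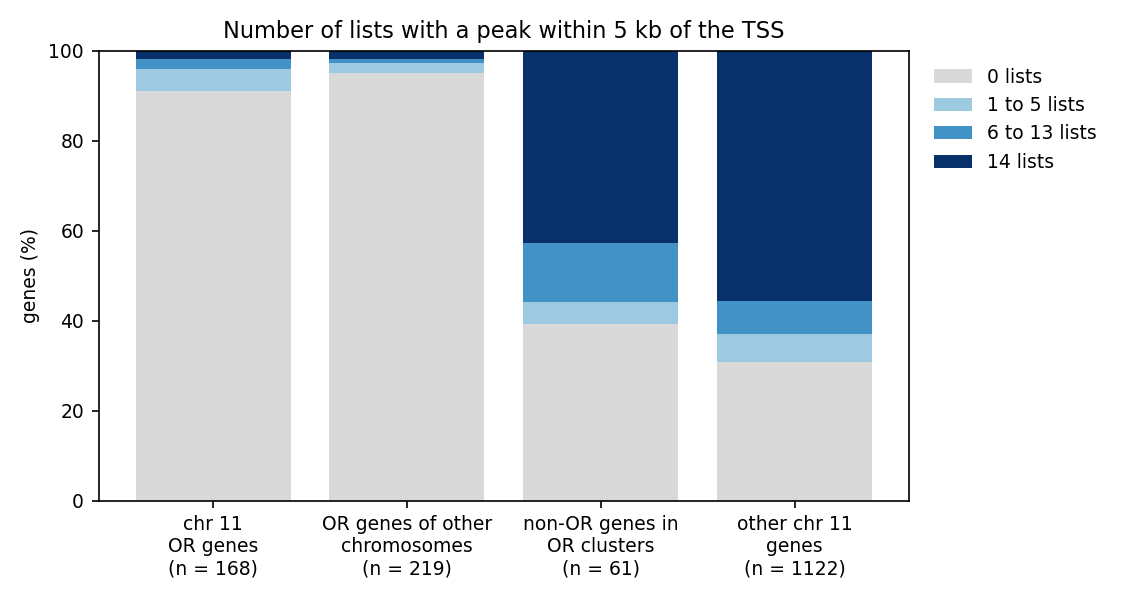
Share of genes (%, stacked bars) by the number of the 14 lists in which a peak was counted, for the chromosome 11 OR genes, the OR genes of other chromosomes, the other protein-coding genes inside the OR clusters and the other protein-coding genes of chromosome 11. The lightest part, genes with no peak, takes 91.1% of the chromosome 11 OR genes and 30.7% of the other genes of the chromosome.

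The members were also poorly covered by peaks. Merged windows of 5 kb around the TSSs spanned 1627 kb, of which peaks covered 0.294% to 1.04% per list, whereas 10.8% to 20.5% of the windows of the other chromosome 11 genes and 1.56% to 3.33% of the whole chromosome were covered. For the members without a peak, the median distance to the nearest peak of the list ranged from 99.6 to 152 kb, against 53.9 to 66.4 kb for the other chromosome 11 genes without a peak. The OR windows held 34 merged peak regions, of which 17 (50%) were found in a single list and 3 (8.82%) in all 14. Over the whole genome these shares were 46.2% and 10.9% of 170069 regions. Among the OR regions 18 (52.9%) were found only in normalized lists and 3 (8.82%) only in fixed-antibody lists, against 33.6% and 27.1% of all regions.

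Where a member had a peak, its rank among the peaks of the list was below that of other genes. The strongest peak of a member, by fold enrichment over input, stood at a median percentile of 58.0 to 80.7 of its list, and the strongest peaks of the other chromosome 11 genes at 86.9 to 90.8. The difference averaged -19.0 percentile points over the 14 lists and was negative in 14 of 14. The share of members with a peak was lower than that of the other chromosome 11 genes in 14 of 14 lists, by 57.4 percentage points on average. Peaks with a -log10 q under 3 made up 5.88% to 33.3% of the peaks in the OR windows and 17.0% to 27.4% of all peaks of a list.

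The number of members with a peak ranged from 5 to 7 in the fixed-antibody lists and from 7 to 11 in the normalized lists. In the fixed-antibody arm it was 6 in 0.31-T32 (3.57% of members, with 56.7% of all protein-coding genes), 6 in 0.62-T16 (57.8% of all genes), 6 in K562-H3K27ac-1.25-T8 (57.6%) and 5 in 2.5-T4 (2.98% of members and 58.3% of all genes). It was 7 (4.17%) in each of 5-T2, 10-T1a and 20-T0.5, where 58.9%, 59.3% and 58.8% of all genes had a peak. In the normalized arm it was 7 in 0.31-T1 (56.9% of all genes) and 0.62-T1 (58.6%), 9 in K562-H3K27ac-1.25-T1 (5.36% of members and 59.3% of all genes), 10 in 2.5-T1 (5.95% and 58.6%) and 10 in 5-T1 (59.8% of all genes). The highest number was 11 in 10-T1b (6.55% of members and 59.3% of all genes), followed by 9 in 20-T1 (59.8% of all genes). The mean was 6.29 ± 0.756 (SD, n = 7 libraries of different titer) in the fixed-antibody arm and 9 ± 1.53 (SD, n = 7 libraries of different DNAchrom) in the normalized arm, and the ranges of the arms meet at 7 members.

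**Figure D2:**
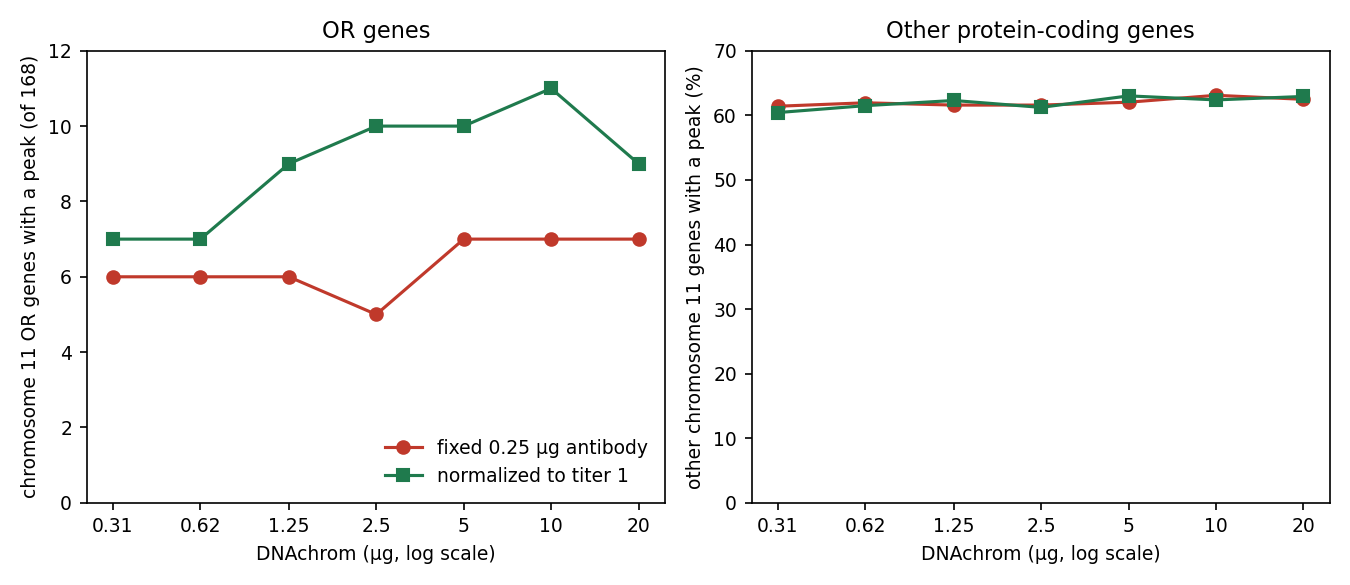
Count of chromosome 11 OR genes with a counted peak (left) and percent of the other protein-coding genes of chromosome 11 with one (right), by DNAchrom in µg on a log axis, for the fixed-antibody (circles) and the normalized arm (squares). Each point is 1 library; the OR count runs from 5 to 11, and the percent of other genes from 60.4% to 63.1%.

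The trend with titer was examined over the 7 fixed-antibody lists, where titer and DNAchrom cannot be told apart. Across them the number of members with a peak had a Pearson correlation with log2(titer) of -0.61 (exact permutation p = 0.200, adjusted p = 0.240 over 6 tests) and a Spearman correlation of -0.69 (exact permutation p = 0.114). Without the libraries at both ends of the titer range, 0.31-T32 and 20-T0.5, r was -0.57 (exact permutation p = 0.467). Neither correlation passed the threshold of 0.05. The share of all protein-coding genes with a peak was 56.7%, 57.8%, 57.6%, 58.3%, 58.9%, 59.3% and 58.8% from 0.31-T32 to 20-T0.5. That share also tended to fall with titer, and its correlation was not computed. The correlation of the members depended on how peaks were counted. With a -log10 q of at least 3 or 5, a window of 10 kb or merged regions r was -0.85, -0.97, -0.90 and -0.87, each past the threshold (exact permutation p from 0.0032 to 0.0429), whereas against the linear titer it was -0.36 (exact permutation p = 0.486) and without the members beside the beta-globin genes 0.24 (exact permutation p = 0.686). Without 10-T1a it was -0.53 (exact permutation p = 0.333). Scaled to the size of the list, there were 1.76 to 2.31 peaks in the OR windows per 10000 peaks of the fixed-antibody lists, with r = 0.02 against log2(titer) (exact permutation p = 0.954, adjusted p = 0.954), rho = 0.14 (exact permutation p = 0.783) and r = 0.53 without the 2 end libraries (exact permutation p = 0.350). Without 20-T0.5 alone it was 0.75 (exact permutation p = 0.0917). Scaled instead as bases covered in the OR windows per Mb of peaks, r was -0.84 (exact permutation p = 0.0286).

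Over the 7 normalized lists, whose titer was the same, the number of members with a peak had r = 0.76 with log2(DNAchrom) (exact permutation p = 0.0571, adjusted p = 0.0857) and rho = 0.70 (exact permutation p = 0.0889). Without 0.31-T1 and 20-T1, r was 0.94 (exact permutation p = 0.0333). Without 20-T1 alone, a library in which fewer members had a peak than in 10-T1b, it was 0.96 (exact permutation p = 0.0111), and without 0.31-T1 alone it was 0.63 (exact permutation p = 0.222). It passed the threshold of 0.05 with a -log10 q of at least 5 (0.82) and a window of 10 kb (0.90). It was lower against linear DNAchrom (0.39, exact permutation p = 0.410), with a window of 1 kb (0.47, exact permutation p = 0.381) and with the full deposited lists (0.51, exact permutation p = 0.246). The share of all protein-coding genes with a peak was 56.9%, 58.6%, 59.3%, 58.6%, 59.8%, 59.3% and 59.8% from 0.31-T1 to 20-T1. That share also tended to rise with DNAchrom, and its correlation was not computed. Per 10000 peaks of the list, peaks in the OR windows were 2.49, 1.78, 2.68, 2.46 and 1.83 from 0.31-T1 to 5-T1. The value was highest in 10-T1b and 2.16 in 20-T1, and did not rise steadily with DNAchrom. The list of 0.31-T1 held the fewest peaks of the arm, 68137. In the paper a smaller share of read pairs mapped uniquely in 0.31-T1, 0.62-T1 and K562-H3K27ac-1.25-T1 than in the other normalized libraries. In this arm neither list size nor mapping was tested.

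At matched amounts of DNAchrom the normalized list had more members with a peak than the fixed-antibody list in 6 of the 6 comparisons with different titers, by 1, 1, 3, 5, 3 and 2 members from 0.31 to 20 µg and by 2.5 on average (exact sign-flip test, two-sided p = 0.0312, which is the smallest that 6 pairs allow, adjusted p = 0.0625). At 10 µg, where both libraries had titer 1, the normalized list had 4 more. The share of all protein-coding genes with a peak was also higher in the normalized list in these 6 comparisons. In the normalized lists it was 56.9%, 58.6%, 59.3%, 58.6%, 59.8% and 59.8% from 0.31 to 20 µg. In the fixed-antibody lists it was 56.7%, 57.8%, 57.6%, 58.3%, 58.9% and 58.8%. At 10 µg it was 59.3% in both. This difference over all genes was not tested. At 6 of the 7 amounts every member with a peak in the fixed-antibody list also had one in the normalized list. The exception was 0.62 µg, where OR51E1 and OR8B8 had a peak only in 0.62-T16, and OR52A1, OR51B4 and OR51B5 only in 0.62-T1. This overlap was not counted over all protein-coding genes, so it is not a result about the members. In all, 11 members (6.55%) had a peak in more normalized than fixed-antibody lists and 1 (0.595%) in fewer, against 7.13% and 4.72% of all protein-coding genes. Without the members beside the beta-globin genes the mean difference was 1.17 (exact sign-flip p = 0.219), and per 10000 peaks of the list it was 0.20 peaks in the OR windows (exact sign-flip p = 0.250).

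Of the 107 combinations with a peak, 88 (82.2%) came from 7 members that had one in 9 or more lists. OR2AT4, known as a receptor for a sandalwood odorant in skin keratinocytes, had a peak in all 14 lists. Its strongest peak had a fold enrichment of 6.51 to 11.6 in the fixed-antibody lists (median 8.83) and of 6.28 to 12.2 in the normalized lists (median 10.6), and its mean percentile, 86.2, was the highest of the members. Both arms overlapped over nearly their whole range. The gene stands apart from the OR clusters, with the nearest other protein-coding TSS, that of SLCO2B1, 54.2 kb away. Its strongest peak was 464 to 6937 bp wide (median 1547 bp), and its summit ranged from -8494 to 1510 bp from the start, so it was not the same peak in every list. Merged over lists, peaks of all 14 formed a region of 10373 bp (chr11:75095789-75106161) that extends upstream of the start at position 75096890 and over a pseudogene, LOC100421207.

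OR52N2, in the cluster at the beta-globin genes but 539 kb from them, also had a peak in all 14 lists. Fold enrichment ranged from 4.86 to 10.5 in the fixed-antibody lists (median 7.29) and from 6.75 to 11.1 in the normalized lists (median 9.64). It was lowest in 0.31-T32 and 0.62-T16, and the arms overlapped from 6.75 to 10.5. The summit lay 84 to 1904 bp downstream of the start, inside the gene, whose span of 12560 bp exceeds the median of the members, 1103 bp. The peak was 2069 to 2759 bp wide in 8 lists and at most 536 bp in the other 6, which were 0.31-T32, 0.62-T16, K562-H3K27ac-1.25-T8, 2.5-T4, 5-T2 and 0.31-T1.

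OR2D3 had its peak in all 14 lists at the edge of the window, with the summit 4979 to 5139 bp downstream of its start. The peak lay just upstream of the start of ZNF215, 5424 bp from that of OR2D3, and ZNF215 also had a peak in all 14 lists. In 12 of these lists the strongest peak of both genes was the same. Its fold enrichment near OR2D3 ranged from 5.38 to 9.63 in the fixed-antibody lists (median 5.91) and from 6.5 to 8.15 in the normalized lists (median 7.28), so the normalized values lay within the fixed-antibody range. With a window of 1 kb OR2D3 would not be counted.

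OR51B5 had a peak in 13 lists, all but 0.62-T16. Fold enrichment was 4.77 to 7.68 in 6 fixed-antibody lists (median 5.92) and 4.61 to 9.10 in the normalized lists (median 6.42). Its annotated span of 165335 bp is the longest among the members named here. The summit lay 124 to 826 bp inside OR51B5.

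OR52A1, on the HBB side of the beta-globin genes and 70.7 kb from them, had a peak in 12 lists, all but 0.62-T16 and K562-H3K27ac-1.25-T8. Fold enrichment was 3.97 to 8.55 in 5 fixed-antibody lists (median 5.66) and 5.06 to 7.56 in the normalized lists (median 6.35). The strongest peak did not lie at the same place in both arms. Its summit was 2385 to 3262 bp downstream of the start in the 5 fixed-antibody lists and 654 to 832 bp downstream in 6 of the 7 normalized lists, with 5-T1 as the exception at 3079 bp. Merged over lists, the region farther downstream (chr11:5150605-5152759) was found in 12 lists and the nearer region (chr11:5153400-5154944) in 11, 4 of them fixed-antibody, so both were present in most lists and changed in rank.

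OR51T1 had a narrow peak in 12 lists, 5 fixed-antibody and 7 normalized, and none in 0.31-T32 and 2.5-T4. Fold enrichment was 4.45 to 9.89 in the fixed-antibody lists (median 5.67) and 3.31 to 5.98 in the normalized lists (median 5.05). The value of 20-T0.5, 9.89, lay above those of the other 11 lists, which reached 6.17. The summit lay 39 to 742 bp from the start, inside the gene, which itself lies within the span of MMP26, a matrix metalloproteinase gene.

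OR51B4, the member nearest to HBE1 at 32001 bp, had a weak peak in 9 lists, 3 fixed-antibody and 6 normalized. Fold enrichment was 4.03, 5.02 and 4.63 in K562-H3K27ac-1.25-T8, 10-T1a and 20-T0.5, and ranged from 3.41 to 5.37 over the normalized lists (median 3.99), where 0.31-T1 had none. In 8 of the 9 lists the summit lay 3704 to 4026 bp downstream of the start, on the side of HBE1. In K562-H3K27ac-1.25-T1 it lay upstream instead, at -3593 bp from the start.

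**Figure D3:**
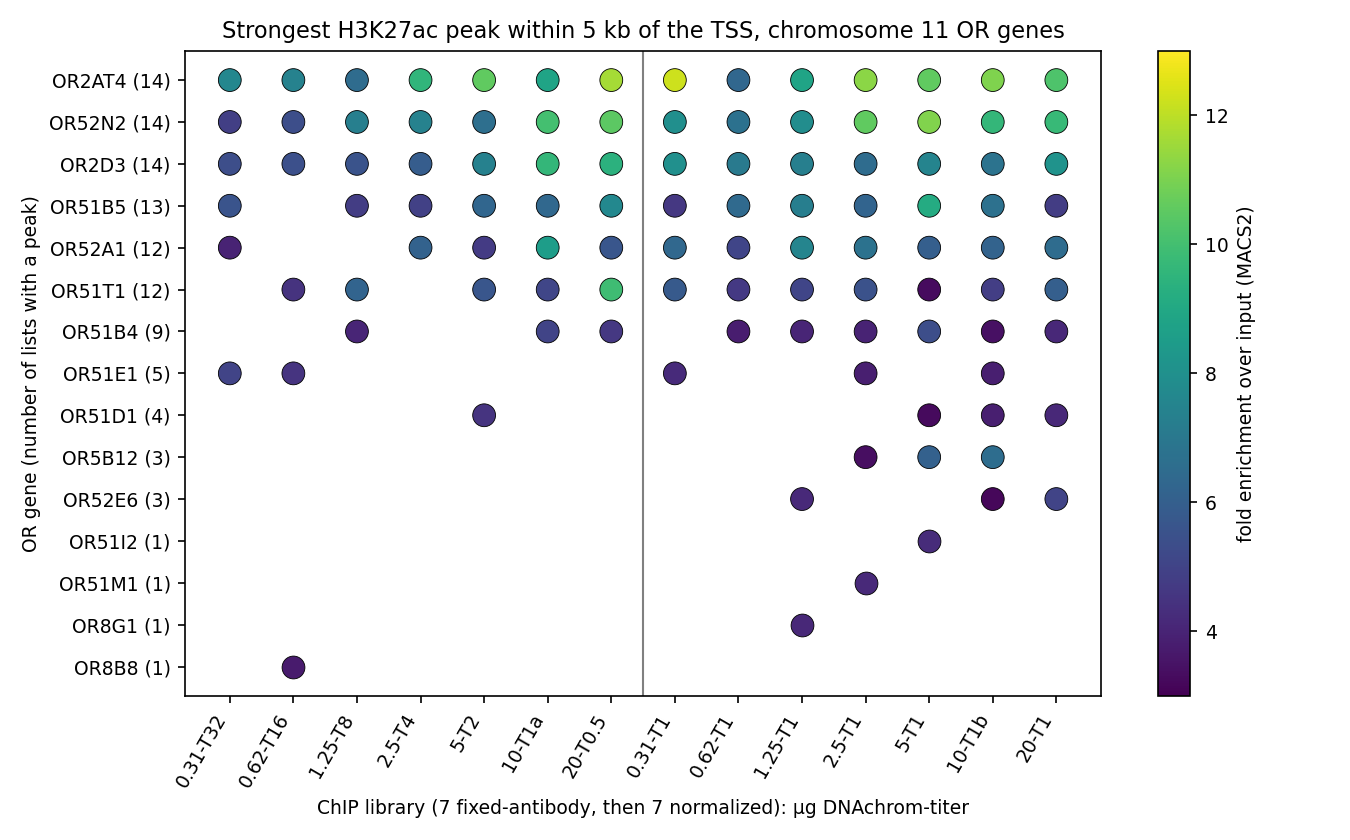
Fold enrichment over input (color scale) of the strongest peak within 5 kb of the TSS for the 15 OR genes with a peak in at least 1 list (rows, with the number of lists) in each of the 14 libraries (columns). An empty cell is a list without a counted peak. The 7 upper genes have a peak in 9 to 14 lists and the 8 lower ones in 1 to 5, mostly on the normalized side.

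The remaining 8 members (4.76%) had a peak in 1 to 5 lists, as had 5.85% of all protein-coding genes. For these members a peak was counted 4 times in a fixed-antibody and 15 times in a normalized list. This split was not counted over all genes. OR51E1, known as a receptor expressed in the prostate, had a peak in 0.31-T32, 0.62-T16, 0.31-T1, 2.5-T1 and 10-T1b, with a fold enrichment of 3.82 to 5.01. Its neighbour OR51D1 had one in 5-T2, 5-T1, 10-T1b and 20-T1 (3.23 to 4.50), and in 10-T1b both genes were counted from the same peak between them. OR5B12 had a peak in 2.5-T1, 5-T1 and 10-T1b, with a fold enrichment of 3.37, 6.06 and 6.52. OR52E6 had one in K562-H3K27ac-1.25-T1, 10-T1b and 20-T1, with 4.16, 3.19 and 5.02. Both had the summit upstream of the start, at -4007 to -3871 bp for OR5B12 and at -4871 to -4720 bp for OR52E6, so that the same place was marked each time. A single list held a peak for OR51I2 (5-T1, 4.24), OR51M1 (2.5-T1, 4.16), OR8G1 (K562-H3K27ac-1.25-T1, 4.12) and OR8B8 (0.62-T16, 3.73). In all, 5 members (2.98%) had peaks in normalized lists alone and 1 (0.595%) in fixed-antibody lists alone, against 1.83% and 1.90% of all protein-coding genes.

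The counted peaks had a -log10 q from 2.05 to 22.4 with a median of 7.48. Just below the threshold of 2, 6 combinations of 5 members and a list held only a weaker peak, with values from 1.34 to 1.96. Of these members only OR52D1 had no counted peak at all, and its weaker peak, in 0.31-T1, had a value of 1.34. Just beyond 5 kb, 13 members had a peak within 10 kb in a list where they were not counted, and 8 of these had no counted peak in any list. With the wider window the members with a peak in at least 1 list rose from 15 to 23. Among all protein-coding genes the share rose from 65.2% to 68.4%. OR10D3, singled out after its values were seen, had such a peak in 13 lists, all but 0.31-T32, with the summit 6.73 to 7.64 kb from its start. Its fold enrichment was 3.30, 4.01, 3.52, 4.78, 5.64 and 7.20 from 0.62-T16 to 20-T0.5, and 9.93, 10.7, 8.08, 7.35, 7.49, 10.5 and 12.7 from 0.31-T1 to 20-T1. The normalized values all lay above the fixed-antibody values, and as the gene was chosen for this pattern it was not tested.

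The globin genes stand within the largest OR cluster, and 15 members have their TSS within 250 kb of the span from HBB to HBE1. Of these, 5 (33.3%) had a peak in at least 1 list, compared with 10 of the 153 other members (6.54%). They were OR52A1, OR51B4, OR51B5, OR51I2 and OR51M1. No peak was counted for OR51L1, OR52J3, OR52E2, OR52A5 and OR51V1 on the HBB side, nor for OR51B2, OR51B6, OR51Q1, OR51I1 and OR52D1 on the HBE1 side. Their number with a peak was 0 to 3 in the fixed-antibody lists (median 2) and 2 to 4 in the normalized lists (median 3). The list with none was 0.62-T16.

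Peaks were counted near the globin genes in nearly every library, though not always over the genes themselves. HBG1 and HBG2, the fetal globin genes, had a median fold enrichment of 7.90 for each in the fixed-antibody lists and of 12.7 and 12.5 in the normalized lists, and both had a peak in all 14. Over all protein-coding genes with a peak, the median of a list was also higher in the normalized arm, typically 11.3 against 8.97 (medians over the lists). A peak overlapped the span of HBG1, HBG2 and HBD in all 14 lists. HBE1, the embryonic gene, also had a counted peak in all 14, but the strongest lay upstream, on the side of the locus control region, with its summit at -10289 to -4690 bp from the start. Over HBE1 itself a peak lay in 10 lists, 4 fixed-antibody and 6 normalized, and in 0.31-T32 and 0.62-T16 the nearest peak was 4667 and 4637 bp from its start. HBB, the adult gene, had a counted peak in 13 lists, all but 0.31-T32, and in 12 of these the strongest lay beyond the 3′ end of the gene. Over HBB itself a peak lay in 4 lists, all normalized. The windows of neighbouring globin genes overlap, so a peak may count for more than 1 of them.

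Peaks were dense from HBB to the stretch beyond HBE1 and sparse over the OR genes on both sides. Peaks covered a median of 24.8% of the 44.5 kb from HBB to HBE1 in the fixed-antibody lists and 38.6% in the normalized lists. In the next 32001 bp, from HBE1 to the TSS of OR51B4, the side on which the locus control region is known to lie, they covered 47.6% and 64.6%. Beyond the TSS of OR51B4, in the 218 kb up to 250 kb from HBE1, the median coverage was 0.708% and 1.02%. In the 250 kb on the HBB side it was 0.785% and 1.46%, and 0.62-T16 had no peak there. Over the whole of chromosome 11 the median coverage was 2.30% in the fixed-antibody lists and 3.11% in the normalized lists. OR51V1, whose TSS is 24.8 kb from the HBB end, was thus nearer to the globin genes than OR51B4 and had no peak, and OR51B2, the next member beyond OR51B4 at 54.4 kb, had none either.

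**Figure D4:**
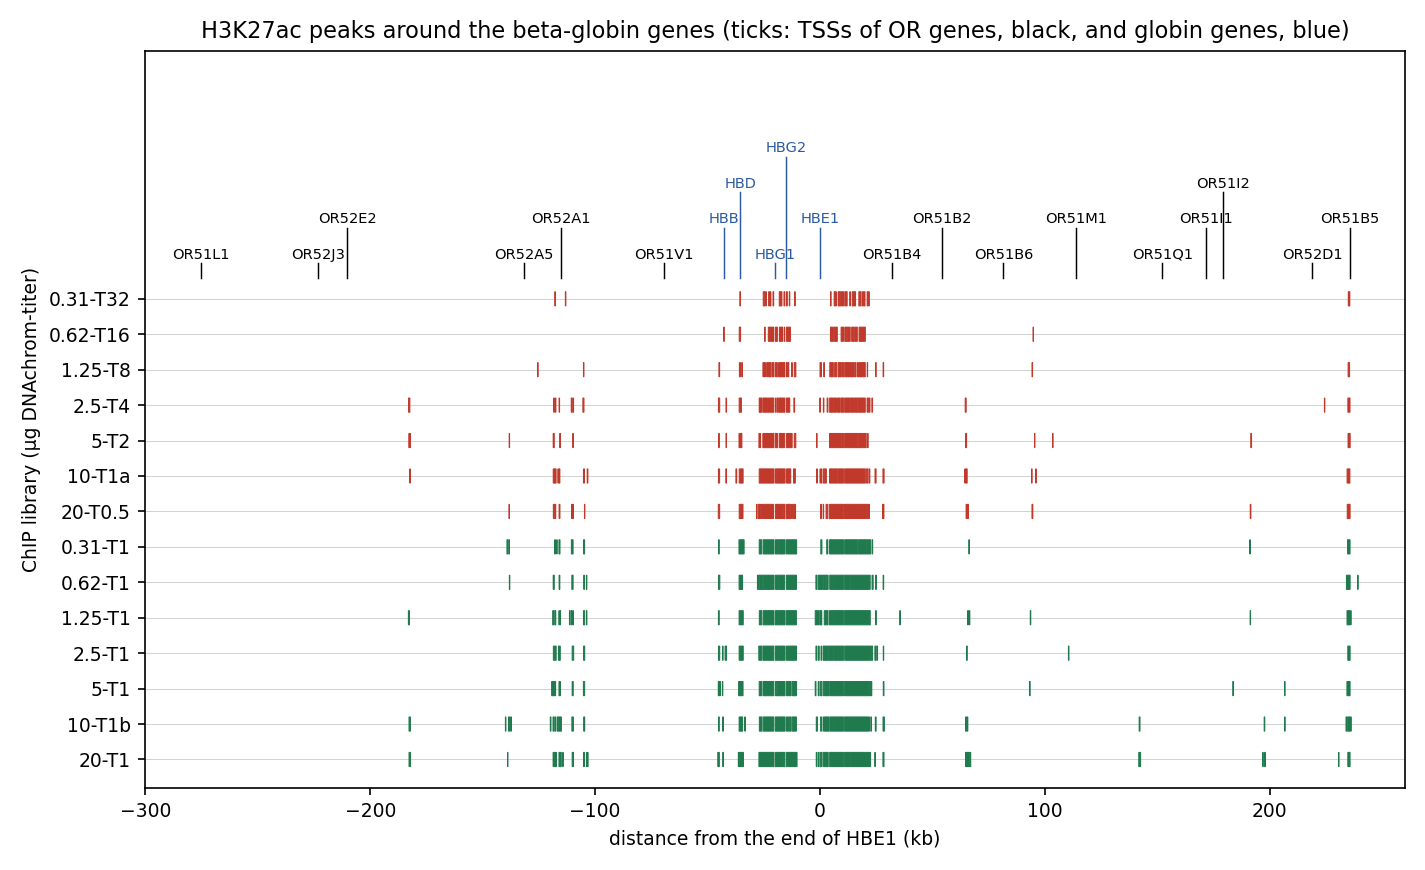
Peaks (bars) around the beta-globin genes in the 7 fixed-antibody (red) and 7 normalized libraries (green), by distance from the end of HBE1 in kb, with the TSSs of OR genes (black) and globin genes (blue) above. Bars have a minimum drawn width, so narrow peaks look wider than they are. Peaks crowd between HBB and OR51B4 and cover at most 2.34% of the flank on the HBB side and 1.82% of the flank beyond OR51B4.

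Grouped along the chromosome with gaps of at most 1 Mb, the 168 members formed 7 groups. The group around the globin genes held 67 members, of which 11 had a peak in at least 1 list and 2 in all 14. Of its 43 other protein-coding genes, among them many TRIM genes, 30 had a peak (69.8%) and 22 had one in all 14 lists. The second largest group, 48 members over 2.38 Mb near the centromere, had no peak near any member and none near its 2 other genes. A group of 22 members had 2 with a peak, OR8G1 and OR8B8, and a group of 21 members had 1, OR5B12. Groups of 7 and 2 members had none, and OR2AT4 stood alone.

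Members near other genes were few. Only 5 members had the TSS of a gene that is not an OR gene within 10 kb, and 2 of them, OR2D3 and OR51B5, had a peak. Among the members farther away, 13 of 163 had one. The median distance to the nearest such TSS was 72.3 kb for members with a peak and 159.5 kb for those without. By distance, 2 of 5 members had a peak within 10 kb, 3 of 23 from 10 to 50 kb, 3 of 38 from 50 to 100 kb and 7 of 102 beyond 100 kb.

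As a check of the cell line, the erythroid markers GATA1, TAL1, KLF1, LMO2, HBG1, HBG2 and HBE1 each had a peak within 5 kb of the start in all 14 lists, the strongest of which for HBE1 was the upstream peak described above. Of 4 markers of mature olfactory neurons, OMP, CNGA2 and GNAL had no peak in any list, and ADCY3, an adenylyl cyclase that is not limited to these neurons, had one in all 14. Of 19 genes for the machinery around OR genes, 6 had a peak in all 14 lists and 13 in none. Of all protein-coding genes, 51.8% had a peak in all 14 lists and 34.8% in none. The 6 were KDM1A, a histone demethylase, LDB1, an adaptor of LIM domain factors that also acts at the globin genes, the stress factor gene ATF5, ADCY3, and the channel subunit genes CNGA4 and CNGB1. The 13 without a peak were OMP, GNAL, CNGA2, ANO2, RTP1, RTP2, REEP1, LHX2, EBF1, EBF2, EBF3, EBF4 and EMX2, which include the receptor transporters and the transcription factors of olfactory neurons.

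The promoters of the members, like those of the OR genes of other chromosomes, held less GC and fewer CpG than those of other genes. Promoter here means the 300 bases around the annotated start. In OR51T1 and OR51V1, shown above, that start falls on an ATG, and 89 of the 168 members span at most 1200 bp. For such members the bases may surround the start codon and not the start of transcription, which was not examined. Of the 168 members 135 were matched to the RefSeq promoter table. OR2AT4, OR51B4, OR51B5 and OR52A1 were among those not matched. The 300 bases had a median GC content of 37.0% and a median of 1 CpG, against 38.3% and 1 in 177 OR genes of other chromosomes and 62.7% and 22 over all 15813 promoters. At most 5 CpG were found in 133 members (98.5%), in 92.7% of the OR genes of other chromosomes and in 19.5% of all promoters. OR52N2, with 14 CpG and a GC content of 55.3%, was thus an exception among the matched members, whereas OR51T1 and OR2D3, shown above, held 1 each. Among promoters with up to 5 CpG, 7 of 133 members (5.26%) had a peak in at least 1 list, as had 6 of 164 OR genes of other chromosomes (3.66%) and 891 of 2779 other genes (32.1%).

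**Figure D5:**
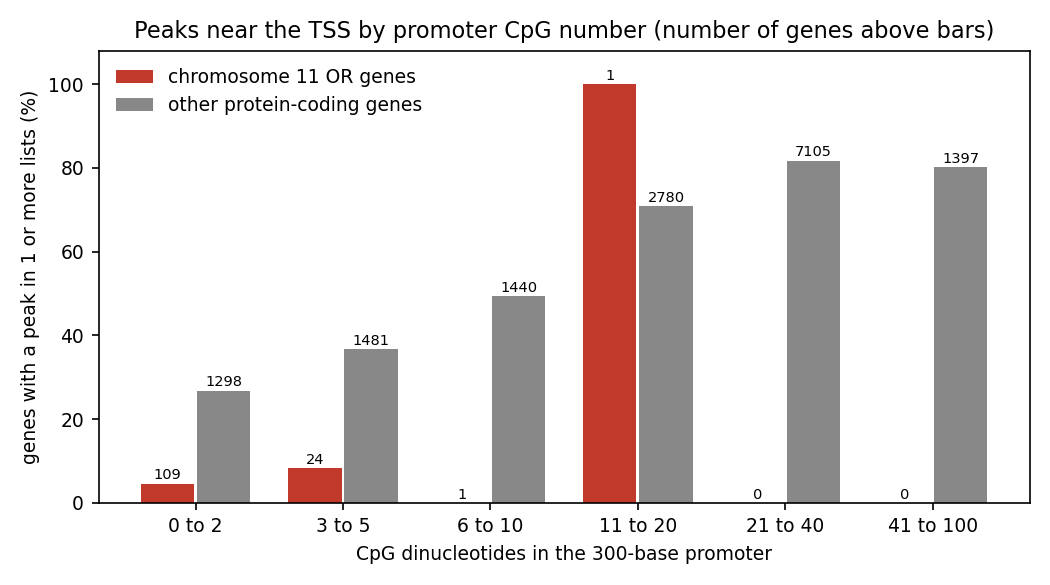
Percent of genes with a peak in at least 1 list by the number of CpG dinucleotides in the 300-base promoter, for the chromosome 11 OR genes and for the other protein-coding genes, with the number of genes above each bar. With 0 to 2 CpG a peak was found for 4.59% of 109 OR genes and 26.8% of 1298 other genes; the bar of 100% rests on OR52N2 alone.

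Motifs were searched on both strands, where matches of different motifs may overlap. The TATA box TATAAA was found in 35.6% of the members' promoters in 34.5% of those of the OR genes of other chromosomes and in 9.64% of all promoters of this length. In the same order the GATA motif AGATAA was found in 29.6%, 31.6% and 7.55%, and the homeodomain motif TAATTA in 24.4%, 21.5% and 3.35%. These motifs hold mostly A and T, as do these promoters. Among the members with no peak they were found in 45, 37 and 28 of 127. Of the 8 matched members with a peak, TATAAA was present in 3, AGATAA in 3 and TAATTA in 5.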

How the data were processed

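The data are 14 H3K27ac peak lists of K562 cells, 1 for each ChIP library. The authors aligned the reads (BWA 0.5.9 and CASAVA 1.4 in the submitters' processing notes) and used MACS2 in Partek Flow to call the peaks of each library against the input of its arm. The deposited values used here are the fold enrichment over input, a linear ratio, and the -log10 of the q-value. The paper names hg19 and an FDR of 1%. The submitters' notes name hg38, peaks of 7 chromosomes extend past their GRCh37 ends, and the lists reach a q-value of 5.00% (-log10 q of 1.30), so they were read as GRCh38 and a peak was counted only at a -log10 q of 2 or more. This left 64083 to 81930 peaks per fixed-antibody list and 68137 to 82143 per normalized list. The paper reports fewer peaks for each of these libraries at an FDR of 1%, so the lists used here are not its peak sets. The deposited lists hold no reads, so precision is that of the peak calls. The paper gives read counts per library, but read depth was not used here and libraries were compared without adjusting for it. The inputs entered only through the authors' calling.

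The TSS was the outer 5′ end of the RefSeq gene. For OR51T1 and OR51V1 this end is an ATG, so the windows of some members may lie around a start codon. The strand came from the RefSeq promoter table for 135 members and from GENCODE v44, by symbol, for 33. As a check, a peak of 10-T1b lay within 1 kb of the TSS for 55.2% of all genes and within 1 kb of the opposite end for 18.4%. The strongest peak was that of the highest fold enrichment, and percentiles are within a list. The members, gene lists and tests were chosen with earlier results of these data known. Named genes were the members with a peak in most lists (up to 20), every member within 250 kb of the globin genes, the 5 globin genes and the olfactory machinery list. Trends used exact permutation tests of Pearson's r and Spearman's rho, and matched amounts an exact sign-flip test, all two-sided, adjusted by Benjamini-Hochberg over 6 tests. The other 2 tests of this family set the members against the other chromosome 11 genes and are given by their values alone. Functions were tested on simulated data. Alternatives were other q-values, windows, comparison sets and left-out libraries. Python 3.11.15, numpy 2.4.6, scipy 1.17.1, pandas 2.3.3 and matplotlib 3.10.9 were used. Some genes are not reported here.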

Additional observations from a re-analysis of the deposited data

Results flagged for a closer look

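In 27 groups of 4 to 7 lists, values were examined for 1 list far from the others, a rule that by chance marks about 1 group in 20, and 3 lists stood out. The median distance to the nearest peak of the OR genes without a peak was 152.4 kb in 0.31-T32, the library with the highest titer and the fewest peaks, and 115.4 kb in the next fixed-antibody list, 0.62-T16. In the normalized arm this distance was 132.7 kb in 0.62-T1 and 112.2 kb in the next list, 0.31-T1. Among the 6 normalized lists with a peak near OR51B4, its fold enrichment was 5.37 in 5-T1 and 4.11 in the next list, 20-T1.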

How the results depend on the processing

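The lower rank of the members' peaks held under every alternative run, with mean differences from -35.0 to -10.9 percentile points and from -19.8 to -18.1 with a list left out. Their lower share against other genes also held (-57.6 to -57.3 points with a list left out), but against the OR genes of other chromosomes the sign turned, at 1.65 points. The matched difference of 2.5 members had p over 0.05 with the full deposited lists (2.5), a window of 1 kb (1.33), without the members beside the globin genes (1.17) and, per 10000 peaks, an alternative chosen after seeing the data (0.20). With an amount left out it was 2 to 2.8, where 5 pairs cannot reach p under 0.0625. The correlation with titer passed p of 0.05 with a -log10 q of at least 3 (-0.85) or 5 (-0.97), a window of 10 kb (-0.90) and merged regions (-0.87), and was -0.36 against linear titer, 0.24 without the members beside the globin genes and -0.93 to -0.50 with a list left out. That with DNAchrom passed with a -log10 q of at least 5 (0.82) and a window of 10 kb (0.90), was 0.39 against linear DNAchrom, 0.47 with 1 kb and 0.51 with the full lists, and was 0.63 to 0.96 with a list left out. Per 10000 peaks, the correlation with titer was -0.12 and -0.59 at a -log10 q of at least 3 and 5, -0.030 with 10 kb, -0.84 as bases covered per Mb of peaks and -0.31 to 0.75 with a list left out. The cause of these shifts was not tested. The number of members with a peak in at least 1 list was 7 with 1 kb and 9 with a -log10 q of at least 5. It was 23 with 10 kb and 18 over the gene body with 5 kb on each side. In the same order, 60.9%, 59.9%, 68.4% and 72.9% of all protein-coding genes had one. The gene body and the TSS of the promoter table were alternatives chosen after seeing the data. No paired analysis was possible because the replicate numbers only order the amounts of DNAchrom, beyond the matched comparison by amount given in the report.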
